A study of Rattus norvegicus with 8 samples.

Results

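Htr3a (ENSRNOG00000006595) and Htr3b (ENSRNOG00000006920) encode the A and B subunits of the serotonin 5-HT3 receptor. They were chosen by name as 2 of the 32623 genes in the count table, with their values in these libraries already known, so their levels, their changes and the Htr3b to Htr3a count ratio are described here without a test. Both genes passed the filter on low counts.

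The 5-HT3 receptor is a ligand-gated cation channel of the Cys-loop family, unlike the other serotonin receptors, which act through G proteins. Serotonin opens it directly and depolarizes the cell. The A subunit can form a channel alone, while the B subunit reaches the cell surface only together with the A subunit and changes the conductance of the channel. In peripheral sensory neurons the receptor is known as an excitatory target of serotonin released in injured or inflamed tissue. Related Cys-loop channels are the nicotinic acetylcholine receptors, which pass cations, and the GABA-A and glycine receptors, which pass chloride.

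RNA was profiled in dorsal root ganglia (DRGs), which hold the cell bodies of sensory neurons, from adult, gonadally intact Sprague-Dawley rats of both sexes. Males and females were each split into a naïve and a CCI group, which gave 4 groups of 2 rats. CCI rats had a chronic constriction injury, in which the sciatic nerve is loosely tied with sutures, and DRGs were taken on postoperative day 14. Naïve rats had no operation, so the effects of nerve injury and of surgery cannot be told apart. Each library held the L4-L6 DRGs of the ipsilateral side of 1 rat, the stage of estrus was not determined, and CCI rats without a fall in paw withdrawal threshold were not used.

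Total counts ranged from 39489103 to 60818457 per library, and 16988 genes were tested. The labels were checked on Eif2s3y, a gene of the Y chromosome, which had between 6194 and 9446 counts in males and at most 1 in females, and on Atf3, a transcription factor induced by nerve injury, which had at most 12.7 CPM in naïve rats and at least 67.7 CPM in CCI rats. CPM are counts relative to the library total after TMM scaling, and groups are given as mean ± SD (n = 2). The 2 naïve male libraries differed in the summed level of 6 red blood cell genes, at 84.4 and 850 CPM. Rats of the same group differed by more than counting noise in every group, and no library was a copy of another. Each rat is a separate animal, but 2 rats per group give only a rough estimate of the spread.

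Htr3a and Htr3b are neighbours on chromosome 8 in the RefSeq annotation of the rat assembly GRCr8, with no annotated protein-coding gene between them. The counts were made on the assembly rn6, so no position is given for the counted genes. The next protein-coding genes are Zbtb16, Nnmt and C8h11orf71 on the side of Htr3a, and Usp28, Cldn25 and Zw10 on the side of Htr3b. Of these, Nnmt and Zbtb16 could be matched to a count. Nnmt, which encodes a nicotinamide methyltransferase, had 7.30 ± 0.241 CPM in naïve and 10.99 ± 0.492 CPM in CCI males. In females it had 13.8 ± 2.07 CPM without and 10.9 ± 0.123 CPM with CCI. Zbtb16, which encodes a zinc finger repressor, had 2.996 ± 0.0616 CPM in naïve and 4.38 ± 0.154 CPM in CCI males. In females it had 7.13 ± 1.08 CPM without and 7.11 ± 1.52 CPM with CCI. Both were lowest in naïve males and, like Htr3a and Htr3b, higher in both CCI males than in both naïve males, as in 36.3% of tested genes. Unlike Htr3a and Htr3b, neither had its highest mean level in CCI males. These 2 neighbours were matched only because the study's tables list them as differing between groups.

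The sequence upstream of Htr3b is given as description only, and its bearing on the RNA levels was not tested. RefSeq gives it for GRCr8 at chr8:58204940-58205189 on the minus strand, as the 250 bases before the annotated start of the gene, with a GC content of 56.8% against a median of 51.2% over the promoters in the same table. The promoter of Htr3a was not analysed here. The capitals mark a GC box, GGGCGG, read on the other strand, and it ends 22 bases before the start.
Htr3b: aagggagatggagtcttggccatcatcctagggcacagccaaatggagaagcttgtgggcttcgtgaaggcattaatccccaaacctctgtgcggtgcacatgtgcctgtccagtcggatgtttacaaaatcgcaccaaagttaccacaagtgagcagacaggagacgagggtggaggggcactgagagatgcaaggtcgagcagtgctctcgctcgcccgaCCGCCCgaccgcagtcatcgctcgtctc
The GC box was present in 30.5% of 33469 RefSeq promoters of the same length. The letters TATAAA (12.9% of promoters), CCAAT (34%), CAGCTG (12%), the AP-1 site TGANTCA (6.34%) and the CRE site TGACGTCA (1.59%) were searched on both strands and were not found in these 250 bases. These are matches of letters, and no binding was measured.

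Htr3a was expressed in every library, with at least 5251 counts. The naïve males had 6366 and 7027 counts, or 122 and 129 CPM. The CCI males had 10800 and 9286 counts, or 185 and 192 CPM. These were the highest values of the 8 libraries, and the male groups did not overlap. The naïve females had 6920 and 6273 counts, or 146 and 148 CPM. The CCI females had 5251 and 5742 counts, or 136 and 147 CPM. The female groups overlapped and lay between the male groups. Counting error alone gives a coefficient of variation between 0.962% and 1.38% for these counts, which is below the difference between the 2 rats of most groups.

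Htr3b had the same order of groups. The naïve males had 4405 and 4939 counts, or 84.2 and 90.6 CPM. The CCI males had 8323 and 6839 counts, or 143 and 141 CPM, and again were the highest of the 8 libraries. The naïve females had 5013 and 4442 counts, or 106 and 105 CPM. The CCI females had 3677 and 4388 counts, or 95.02 and 112 CPM, so that their range enclosed that of the naïve females. Counting error alone gives between 1.1% and 1.65%.

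**Figure D1:**
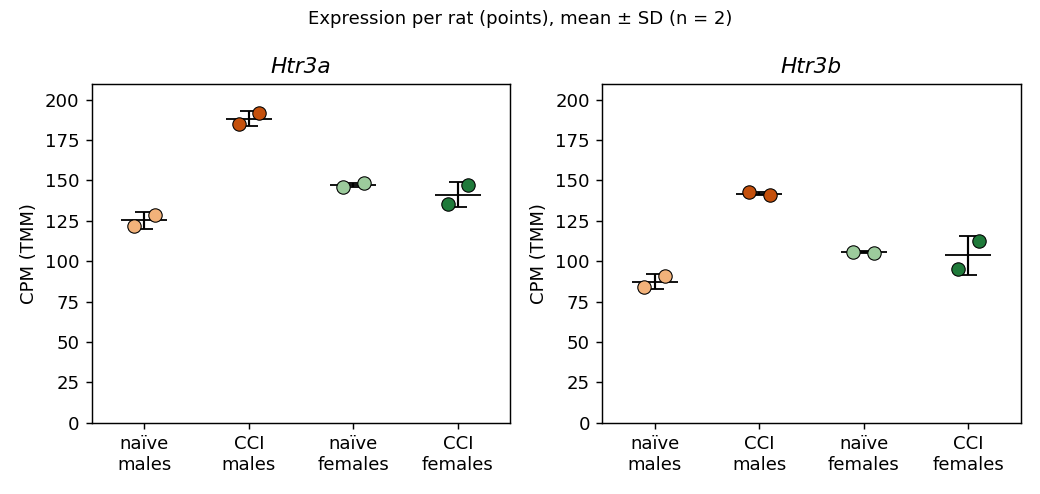
Expression of Htr3a (left) and Htr3b (right) in CPM with TMM scaling, in naïve and CCI rats of each sex. Points are single rats, horizontal lines are group means and error bars are SD (n = 2). The CCI males are highest for both genes, at 185 and 192 CPM for Htr3a and 143 and 141 CPM for Htr3b.

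In order of mean level, Htr3a stood at 125 ± 5.07 CPM in naïve males, 141 ± 7.93 CPM in CCI females, 147 ± 1.43 CPM in naïve females and 188 ± 4.64 CPM in CCI males. Htr3b stood at 87.4 ± 4.50 CPM in naïve males, 104 ± 12.2 CPM in CCI females, 105 ± 0.674 CPM in naïve females and 142 ± 1.05 CPM in CCI males. For both genes, naïve and CCI females did not differ beyond their spread, whereas naïve males and CCI males each stood apart from their neighbour in the order. The 2 rats of a group differed by at most 0.114 on the log2 scale for Htr3a, in CCI females. For Htr3b the largest difference was 0.24, also in CCI females, where the median over all tested genes was 0.128.

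The comparison of CCI with naïve males asked how injury was followed by changes of expression in male DRGs. The log2 fold change (log2FC) was 0.59 (SE 0.0677) for Htr3a and 0.70 (SE 0.068) for Htr3b, that is 1.51-fold and 1.63-fold higher levels in CCI males. Of all tested genes, 90.4% had a lower log2FC than Htr3a and 93.5% a lower one than Htr3b, and the median of all genes was -0.01. A gene counted as called at an edgeR adjusted p below 0.05 together with a log2FC beyond 0.5 in either direction. In males 9.05% of the tested genes were called higher and 12.5% lower, and in 36.3% both CCI males were above both naïve males, as they were for Htr3a and Htr3b. Leaving out 1 male library at a time moved the log2FC between 0.55 and 0.63 for Htr3a and between 0.65 and 0.74 for Htr3b.

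In females the same comparison gave a log2FC of -0.07 (SE 0.0806) for Htr3a and -0.04 (SE 0.0952) for Htr3b. These are near the middle of all tested genes, with 43.2% and 47.7% of genes lower. Among all genes 5.69% were called in females, and in 59.5% the groups did not overlap, whereas they did for both subunits. For Htr3b the sign depended on 1 rat, because the log2FC was 0.09 without the first CCI female and -0.15 without the second. The interaction term, the female log2FC minus the male one over all 8 libraries, was -0.65 (SE 0.0962) for Htr3a and -0.72 (SE 0.123) for Htr3b, with 5.7% and 4.77% of genes lower. An interaction at an adjusted p under 0.05 was found in 1.59% of genes, 1.04% above 0 and 0.547% below.

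The sexes were also compared within each condition. In naïve rats the female log2FC against males was 0.24 (SE 0.0719) for Htr3a and 0.27 (SE 0.0732) for Htr3b. Both naïve females were above both naïve males for each gene, as in 29.5% of tested genes. After CCI the order of the sexes was reversed, with a log2FC of -0.41 (SE 0.0716) for Htr3a and -0.45 (SE 0.091) for Htr3b in females against males. Both CCI females were below both CCI males for each gene, as in 26.5% of tested genes. The comparisons share libraries with each other, so they are not separate evidence. Calls were made for 0.0706% of genes between naïve sexes and 1.06% between CCI sexes.

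DRGs contain sensory neurons, satellite glia, Schwann cells, blood cells and fibroblasts, and the markers of several of these differed between the same groups. Of 10 sensory neuron markers, 3 could be matched to counts, namely Uchl1, a ubiquitin hydrolase, Snap25, a protein of vesicle fusion, and Avil, an actin-binding protein. None of them was near 0 in any library. Their summed level ranged in males from 3096 to 3299 CPM without injury and from 4717 to 5032 CPM after CCI. In females it ranged from 3910 to 3987 CPM without injury and from 3896 to 4390 CPM after CCI. This is the order of groups seen for Htr3a and Htr3b at both ends, with CCI males highest and naïve males lowest. By edgeR's quasi-likelihood test 2 of the 3 were called higher in CCI males (Uchl1 and Avil, log2FC 0.68 and 0.70), and Snap25 had a log2FC of 0.49. Calls in that direction were made for 9.05% of all tested genes and for 21.1% of the genes with a symbol. In CCI females the log2FC were 0.12 for Uchl1, -0.13 for Snap25 and 0.32 for Avil, with edgeR adjusted p of 0.0619 or more.

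Markers of myelinating Schwann cells went the other way. Of 6 markers, 4 had an identifier, and their summed level ranged in males from 9665 to 11804 CPM without injury and from 2816 to 2941 CPM after CCI. In females it ranged from 6493 to 8128 CPM without injury and from 3431 to 4548 CPM after CCI. All 4 of these were called lower in CCI males and 2 of 4 in CCI females, where 40.8% and 5.71% of the genes with a symbol were called lower. As for every marker matched here, they have an identifier only because the study's tables list them as differing between groups, so these counts are not independent evidence.

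Markers of other cells moved as well. Among the genes with a symbol, 40.8% were called lower in CCI males and 5.71% in CCI females. All 3 fibroblast markers with an identifier, of 5, were called lower in CCI males and 0 in CCI females, and their summed level ranged in males from 1783 to 1917 CPM without injury and from 1111 to 1149 CPM after CCI. In females it ranged from 1753 to 1815 CPM and from 1567 to 1584 CPM. Both mast cell markers with an identifier, of 5, were called lower in CCI males and neither in CCI females, at a low summed level of 2.03 to 2.84 CPM in naïve males and 0.257 to 0.413 CPM in CCI males. In females it was 1.78 to 1.87 CPM and 2.48 to 2.53 CPM. The satellite glia marker Fabp7, a fatty acid binding protein and the only one of 3 with an identifier, was called lower in both sexes, with log2FC of -0.88 in males and -0.73 in females. All 6 red blood cell genes were called lower in CCI females and 0 in CCI males. The study lists these 6 among its top genes lowered after CCI in females, so the female count is not independent evidence. Their summed level lay between 926 and 1345 CPM in naïve females and between 110 and 144 CPM in CCI females, while the naïve males lay far apart at 84.4 and 850 CPM and the CCI males at 128 and 164 CPM. The macrophage marker Cd163, the only one of 5 with an identifier, was not called between CCI and naïve rats of either sex. Between CCI sexes it was called higher in females (log2FC 1.77, edgeR adjusted p = 0.02), at 5.84 against 1.72 CPM. Of the genes with a symbol, 2.86% were called higher there. Some Schwann cell, mast cell and fibroblast markers were also called higher in that comparison, and the red blood cell gene Hba2 was called lower. The part of these cells in the levels of Htr3a and Htr3b was not tested. In bulk tissue, a change in the share of a cell type and a change of RNA per cell cannot be told apart.

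Htr3a and Htr3b were therefore also set against the neuron markers of the same library, which leaves out the library totals and the TMM factors. Per 1000 counts of Uchl1, Snap25 and Avil together, Htr3a had 39.3 and 39.1 counts in naïve males and 39.2 and 38.1 counts in CCI males. On this scale the male groups overlapped. Htr3a had 37.4 and 37.2 counts in naïve females and 34.8 and 33.5 counts in CCI females, which were the lowest values. Htr3b had 27.2 and 27.5 counts in naïve males and 30.2 and 28.0 counts in CCI males, still without overlap. It had 27.1 and 26.3 counts in naïve females and 24.4 and 25.6 counts in CCI females. Unlike in CPM, the female groups did not overlap on this scale for either gene, with the CCI females lower. The share of all tested genes without overlap was not counted on this scale, so none of these separations is shown to be unusual.

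**Figure D2:**
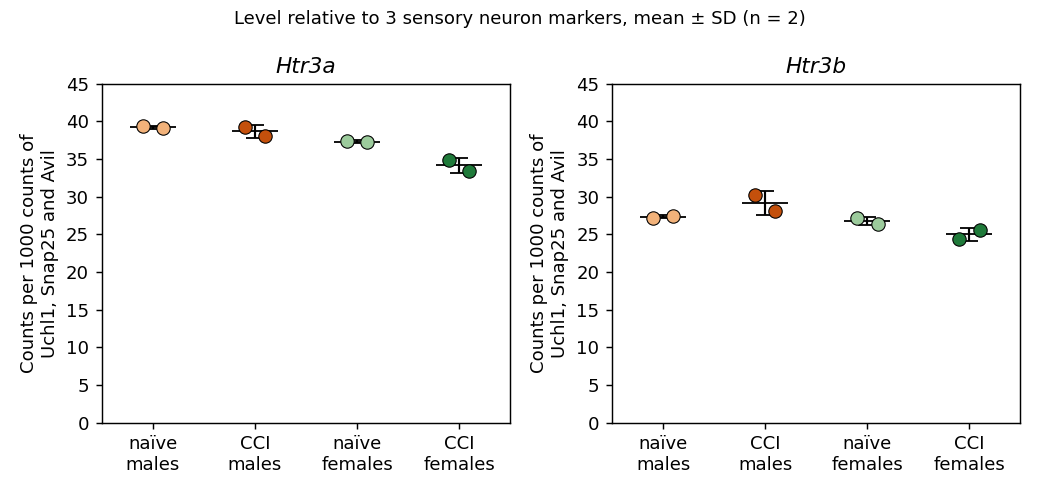
Counts of Htr3a (left) and Htr3b (right) per 1000 counts of the sensory neuron markers Uchl1, Snap25 and Avil in the same library. Points are single rats, horizontal lines are group means and error bars are SD (n = 2). Htr3a lies between 38.1 and 39.3 in all 4 male libraries, and the 2 CCI female libraries are lowest for each gene.

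Relative to these 3 markers the male log2FC became -0.02 for Htr3a and 0.09 for Htr3b, against 0.59 and 0.70 with TMM. The female log2FC became -0.13 and -0.10, and the interaction shrank to -0.11 for Htr3a and -0.19 for Htr3b. With each of the 3 markers alone, the male value ranged from -0.11 (Avil) to 0.10 (Snap25) for Htr3a and from 0.0035 (Avil) to 0.21 (Snap25) for Htr3b. These single-marker scalings were chosen after seeing the data. The level of both subunits was thus higher in CCI males against all counted RNA, and little different against the neuron markers that could be counted. Of the 3 markers, 2 were themselves called higher in CCI males, and all 3 have identifiers only because the study's tables list them as differing between groups. The part of neuronal content in the result was not tested.

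The markers of neuron subtypes had the same limit. Both peptidergic nociceptor markers with an identifier, of 4, were called higher in CCI males, as was the non-peptidergic marker P2rx3 (log2FC 0.75), an ATP-gated channel, and 1 of 2 large-diameter markers, the neurofilament gene Nefh (log2FC 0.65), where 21.1% of the genes with a symbol were called higher. In CCI females these genes had log2FC from 0.23 to 0.41 with edgeR adjusted p of 0.0529 or more, and Pvalb, a calcium-binding protein of proprioceptors, was called lower (log2FC -0.84). No subtype marker set could be used to place Htr3a and Htr3b in a neuron type, since the tissue was not separated into cells.

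The ratio of Htr3b to Htr3a counts within a library does not depend on normalization. Its 95% Wilson interval covers counting error only. The ratio was 0.692 (0.666 to 0.719) and 0.703 (0.678 to 0.729) in the naïve males, and 0.771 (0.749 to 0.793) and 0.736 (0.714 to 0.760) in the CCI males. Both CCI males were above both naïve males, although the intervals of the nearest pair overlapped. The ratio was 0.724 (0.699 to 0.751) and 0.708 (0.681 to 0.736) in the naïve females, and 0.700 (0.671 to 0.730) and 0.764 (0.735 to 0.795) in the CCI females. The intervals of the 2 CCI females did not overlap, and their values lay on either side of the naïve females.

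**Figure D3:**
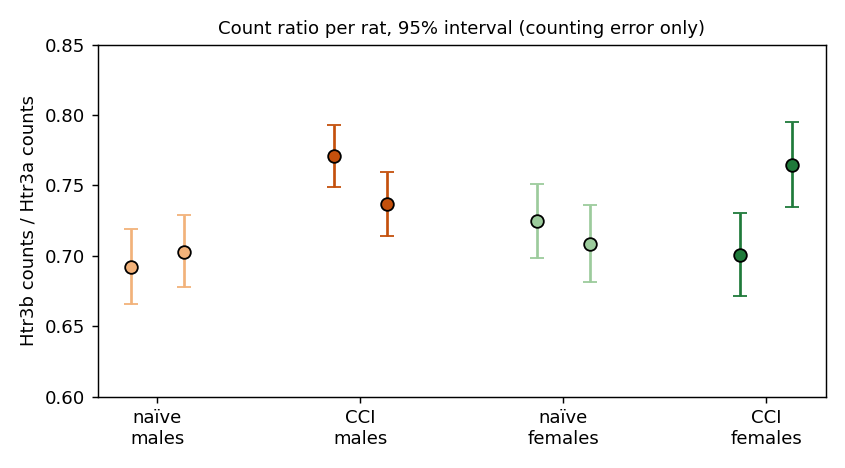
Counts of Htr3b divided by counts of Htr3a in each rat, with 95% Wilson intervals for counting error as bars. The vertical axis starts at 0.6. The ratio runs from 0.692 in a naïve male to 0.771 in a CCI male, and the 2 CCI females lie apart at 0.700 and 0.764.

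The mean ratio of males was 0.697 ± 0.00771 without injury and 0.754 ± 0.0242 after CCI. That of females was 0.716 ± 0.0115 without injury and 0.732 ± 0.0452 after CCI. Over all 8 libraries the ratio stayed between 0.692 and 0.771, with a mean of 0.725 ± 0.0298 (SD), while the CPM of each gene moved by over 1.5 times. The ratio is not per transcript length and gives no ratio of subunits in the receptor.

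By Pearson r over the 8 libraries, Htr3b was the gene most like Htr3a, and Htr3a the gene most like Htr3b, among 16987 other tested genes. Their log2 CPM had a Pearson r of 0.99 and a Spearman rho of 0.905. By rho they were not the closest pair, as given below. Without the 2 CCI males, which lay farthest from the median, r was 0.97 over 6 libraries, and Htr3b then ranked 41st for Htr3a and Htr3a 28th for Htr3b. The points share library, scaling and tissue composition, so these correlations are descriptions over 8 libraries in 4 groups.

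Among the 1841 genes that had a symbol and averaged 1 or more in log2 CPM, the 4 next most similar to Htr3a included Nt5m (r = 0.987), a mitochondrial nucleotidase, Sgtb (0.983), a co-chaperone, and Sh3gl2 (0.981), an endocytic protein of presynaptic terminals. The 4 next most similar to Htr3b included Tmem163 (0.988), a zinc transporter, and Lgi3 (0.981), a secreted protein of the LGI family. These 5 genes had their lowest mean level in naïve males and their highest in CCI males. They were chosen for a high r with the subunits over the same libraries, so this shared order is not independent evidence. Of the 5, Sh3gl2 had the smallest male log2FC (0.46, not called), with 75.1 and 76.4 CPM in naïve rats against 102 and 106 CPM with CCI. Sgtb had the largest (0.69), with 53.6 and 55.5 CPM in naïve rats against 86.2 and 89.9 CPM with CCI. Without the CCI males, r with Htr3a ranged from 0.892 (Sh3gl2) to 0.955 (Nt5m), and r with Htr3b was 0.979 for Tmem163 and 0.935 for Lgi3. Over all 8 libraries, Spearman rho with Htr3a was 1 for Sh3gl2 and 0.976 for Nt5m and Sgtb. With Htr3b, rho was 0.976 for Tmem163 and Lgi3. All of these were above the rho of 0.905 between the 2 subunits.

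**Figure D4:**
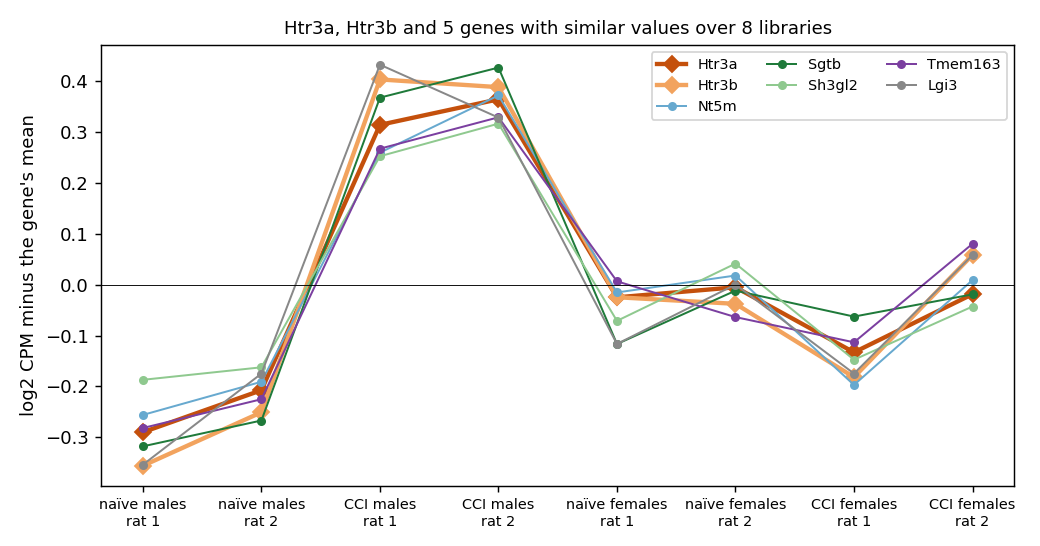
Log2 CPM minus the mean of the gene over the 8 libraries, for Htr3a, Htr3b and 5 genes with a symbol whose values were similar. Each line is a gene and each position on the horizontal axis a rat, with rats in no order within a group. Every gene plotted has its lowest mean in naïve males and its highest in CCI males, and the 5 genes were chosen for their likeness over these libraries.

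The other genes of serotonin signalling and of the Cys-loop family could be followed only where the study's tables pair a symbol with an identifier. Of 12 other serotonin receptor genes 1 had one, as did 1 of 10 genes of serotonin synthesis, transport and breakdown, 1 of 4 genes of receptor folding and assembly, 4 of 16 nicotinic, 4 of 16 GABA-A and 1 of 5 glycine receptor genes considered here. All 12 passed the filter on low counts. The study listed these genes because they differed between groups of the same libraries, so their counts and directions are not independent evidence. Of all genes with a symbol, 21.1% were called higher and 40.8% lower in CCI males.

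Ric3, a chaperone for the assembly of 5-HT3 and nicotinic receptors, had 43.9 and 46.8 CPM in naïve males and 80.7 and 73.6 CPM in CCI males. It rose in males (log2FC 0.77, SE 0.0813, edgeR adjusted p = 0.00569). In females it had 54.0 and 55.6 CPM in naïve rats and 67.4 and 71.5 CPM after CCI, with a log2FC of 0.33 that was below the threshold of 0.5 (edgeR adjusted p = 0.0424). In both sexes the CCI rats were above the naïve rats, and the interaction did not pass the test (log2FC -0.42, edgeR adjusted p = 0.0783).

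Maob, a monoamine oxidase, had 155 and 119 CPM in naïve males and 85.4 and 75.7 CPM in CCI males. It fell in males (log2FC -0.76, SE 0.138, edgeR adjusted p = 0.0145) and was the only one of the 12 called lower there. In naïve females it had 121 and 97.4 CPM, and in CCI females 98.7 and 85.9 CPM. The female groups overlapped (log2FC -0.25, edgeR adjusted p = 0.215).

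Htr1d, an inhibitory serotonin receptor that acts through G proteins, had 12.7 and 12.4 CPM in naïve males and 14.9 and 15.8 CPM in CCI males, with a log2FC of 0.29 that was below the threshold (edgeR adjusted p = 0.042). There were 14.2 and 15.5 CPM in naïve females and 11.4 and 13.2 CPM in CCI females (log2FC -0.28, edgeR adjusted p = 0.174). Without overlap, CCI males were thus above naïve males and CCI females below naïve females, and the interaction did not pass the test (log2FC -0.56, edgeR adjusted p = 0.0829).

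Of the 9 other Cys-loop subunits with an identifier, 6 were called higher in CCI males and 0 lower. Among the genes with a symbol, 21.1% were called higher and 40.8% lower in that comparison. The largest change was in Gabra5, from 8.45 ± 0.195 CPM to 32.6 ± 0.0677 CPM (log2FC 1.95, SE 0.0646, edgeR adjusted p = 0.00453). Gabra2 rose from 90.2 ± 7.85 CPM to 187 ± 0.753 CPM (log2FC 1.05, edgeR adjusted p = 0.00565). The other 4 were the GABA-A gene Gabrg1, Glrb, the beta subunit of the glycine receptor, and the nicotinic genes Chrna5 and Chrna7, with log2FC from 0.76 to 0.94. Chrna6 (log2FC 0.46), Gabra4 (log2FC 0.50, edgeR adjusted p = 0.0549) and Chrne (log2FC -0.20) were not called. The 6 called genes include subunits of cation channels and of chloride channels. All 9 have an identifier only because the study listed them as differing, so no rise across the family is shown.

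Over all 12 genes the male counts were 7 higher, 1 lower and 4 not called. The median log2FC of the 12 was 0.765, and that of all genes was -0.01. The 12 have a symbol only because the study lists them as differing between groups, so these medians are not like for like. These male calls did not hold without the first CCI male, a fit that leaves 1 rat in the CCI group. There the lone rat is assumed to vary like the naïve males, so that fit cannot show whether the calls rest on the rat left out. Before adjustment and with all 4 libraries, 8370 of the tested genes had an edgeR p under 0.05. The log2FC values themselves moved little without the first CCI male, as given for Htr3a and Htr3b.

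In CCI females 2 of the 12 were called, both higher, where 5.26% of the genes with a symbol were called higher and 5.71% lower. Gabra5 rose from 12.02 ± 1.39 CPM to 36.1 ± 1.55 CPM (log2FC 1.58, SE 0.111, edgeR adjusted p = 0.000426). Gabra2 rose from 97.9 ± 0.732 CPM to 144 ± 8.14 CPM (log2FC 0.55, edgeR adjusted p = 0.00875). The other 10 were not called, and the median log2FC of the 12 was 0.16 where that of all genes was -0.02. The same limit applies to these medians. Whichever CCI female was left out, 1 gene was still called.

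**Figure D5:**
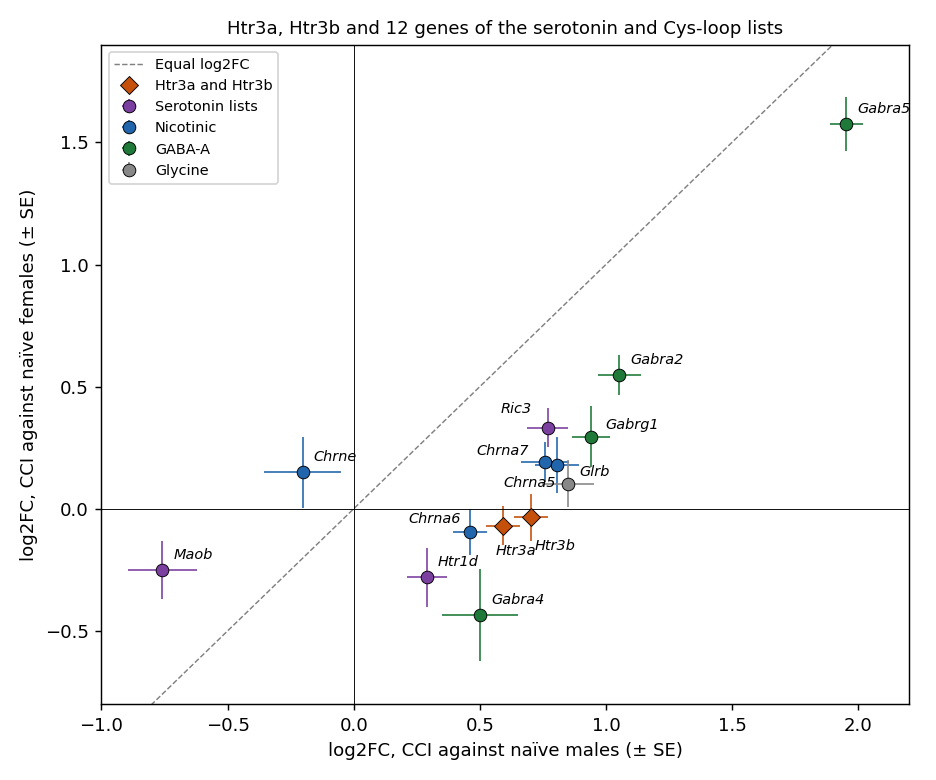
Log2FC of CCI against naïve rats in males (horizontal axis) and in females (vertical axis), with SE as error bars, for Htr3a, Htr3b and 12 genes of the serotonin and Cys-loop lists, and a dashed line where both are equal. Htr3a and Htr3b lie at 0.59 and 0.70 in males and near 0 in females, and 12 of the 14 genes lie below the line, all but Chrne and Maob. The share of all tested genes below the line was not counted.

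The interaction of sex and CCI passed edgeR's adjusted threshold in 0 of the 12, while 11 of 12 had an unadjusted p under 0.05 and DESeq2 called 7. Over all 16988 tested genes 4085 had an unadjusted p under 0.05, DESeq2 called 1585, and edgeR called 7.55% of the genes with a symbol above 0 and 4.03% below. The values of 10 of 12 genes were below 0, a smaller or more negative change in females. The share of all tested genes below 0 was not counted. The median log2FC of the 12 was -0.549, and that of all genes was 0.02. As above, the 12 were listed by the study for differing, and its lists include genes that differ between sexes. The count below 0 is therefore not independent evidence, and these medians are not like for like. The lowest value was that of Gabra4 (log2FC -0.92, SE 0.228, edgeR adjusted p = 0.0763), and the highest that of Maob (log2FC 0.52, SE 0.216, edgeR adjusted p = 0.193).

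Between naïve sexes 0 of the 12 were called by edgeR, while 11 of 12 had a log2FC above 0 for females (median 0.29), 7 of 12 had an unadjusted p under 0.05 and DESeq2 called 3. Over all genes 4345 had an unadjusted p under 0.05 in that comparison, and the median log2FC was -0.006. The share of all genes above 0 was not counted, and the limit on the choice of the 12 applies here too. Between CCI sexes only Chrne was called, at 22.1 ± 4.54 CPM in females and 10.2 ± 1.08 CPM in males (log2FC 1.11, SE 0.162, edgeR adjusted p = 0.046). In that comparison 1.06% of all tested genes were called. Of the genes with a symbol, 2.86% were called higher and 2.35% lower. The call did not hold in every fit, as 0 of the 12 were called with the replicate number as a block. The median log2FC of the 12 between CCI sexes was -0.26.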

How the data were processed

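The deposited table holds raw counts per Ensembl gene for 8 libraries. According to the study's methods, the authors aligned reads of strand-specific poly(A) libraries to rn6 with HISAT2, removed ribosomal reads and counted with featureCounts, and the submitters' processing notes also name CASAVA 1.8.2. Sequencing ran in 2 batches that were not assigned to libraries in the sources used here, so no within-batch value is given.

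Counts were analysed in R 4.3.3 with edgeR 4.0.16 (filterByExpr with minimum count 10 and minimum total 15, TMM, prior count 2 for log2 CPM, quasi-likelihood tests with Benjamini-Hochberg adjustment over all 16988 genes). Each pair of groups was fitted on its 4 libraries and the interaction on all 8. The SE is the size of the log2FC divided by the square root of F. The fits were also run on simulated counts that had no batch or shared replicate effect. The outcome is not given here, and no result rests on it. Alternatives were DESeq2 1.42.0, other scalings, filters and fits, and leaving out each library.

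Symbols came from the study's tables (1961 identifiers, 11.5% of tested genes) and neighbours and promoter from RefSeq. The 2 subunits and all lists were chosen with earlier results of these data known. The rule for named genes took every matched serotonin gene, up to 5 called Cys-loop genes per direction and comparison, 5 genes of most similar pattern per subunit and 3 neighbours on each side. The remaining Cys-loop genes were named after their values were seen. The values of some genes of the lists and of similar pattern are not reported here.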

Additional observations from a re-analysis of the deposited data

Results flagged for a closer look

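Htr1d (interaction log2FC -0.56) and Gabra4 (-0.92) were flagged for opposite orders in males and females. Both CCI males lay above both naïve males, while both CCI females lay below both naïve females. In males 36.3% of all tested genes had both CCI rats above both naïve rats. In females 59.5% had groups without overlap in either direction. The share of all genes with both patterns was not counted, so neither gene is shown to be unusual. The interaction terms of Htr1d and Gabra4 did not pass the test (edgeR adjusted p = 0.0829 and 0.0763). Gabra4 was low, at 3.598 ± 0.384 CPM in naïve and 5.09 ± 0.101 CPM in CCI males, and 4.44 ± 0.391 CPM in naïve and 3.31 ± 0.296 CPM in CCI females (n = 2).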

How the results depend on the processing

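With 2 rats a group, the number of calls moved with single libraries and with the tool, while the log2FC of Htr3a and Htr3b moved mainly with the scaling. Of 152 alternative values for these log2FC, 110 moved by less than the spread between rats, 35 moved further and 7 moved further with a change of sign. Among 456 alternatives for single genes of the lists, 423 kept direction and call, 11 lost the call, 20 gained it and 2 changed sign. Of 40 alternatives for group levels and ratios, 34 moved by less than the spread. The ratio per transcript length was not run, since no transcript lengths of rn6 were used here. Where a cause is not plain from the setting itself, the cause was not tested.

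Scaling to library totals without TMM gave male log2FC of 0.45 (Htr3a) and 0.57 (Htr3b), a female log2FC of -0.13 for Htr3a and an interaction of -0.58 for Htr3a. Relative to the 3 summed neuron markers the male values were -0.020 and 0.092, the female value of Htr3a was -0.13 and the interactions were -0.11 and -0.19. Relative to Uchl1 alone, in the order Htr3a and Htr3b, the male values were -0.081 and 0.032, the female values -0.19 and -0.16 and the interactions -0.11 and -0.19. Relative to Snap25 alone they were 0.098 and 0.21, 0.066 and 0.096, and -0.032 and -0.11. Relative to Avil alone they were -0.11 and 0.0035, -0.39 and -0.36, and -0.28 and -0.36. Relative to 8 markers of neurons and their subtypes they were -0.080 and 0.032, -0.23 and -0.20, and -0.15 and -0.23. The scalings to single markers and to 8 markers were chosen after seeing the data.

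Leaving out each library in turn moved the log2FC of Htr3a between 0.546 and 0.626 in males, -0.118 and -0.0034 in females, 0.195 and 0.281 between naïve sexes, -0.469 and -0.356 between CCI sexes and -0.710 and -0.596 in the interaction. For Htr3b the ranges were 0.646 to 0.742, -0.150 to 0.090 (above 0 without the first CCI female), 0.222 to 0.331, -0.574 to -0.335 and -0.853 to -0.613 in the same order. The number of genes called ranged from 0 to 3705 in males (0 without the first CCI male, where the lone rat is assumed to vary like the naïve males), 109 to 1706 in females, 6 to 367 between naïve sexes, 28 to 423 between CCI sexes and 0 to 400 for the interaction. Of the 12 genes of the lists the ranges were 0 to 8, 1 to 2, 0 to 0, 0 to 2 and 0 to 1. The female log2FC changed sign for Chrne (from -0.067 without the first CCI female to 0.355) and Glrb (from -0.0067 without the second CCI female to 0.224).

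Without a log2FC threshold 6447 genes were called in males and 1560 in females. DESeq2 called 1002 genes between naïve sexes (3 of the 12), 367 between CCI sexes and 1585 for the interaction (7 of the 12). Without a filter on low counts 130, 284 and 1032 (5 of the 12) were called. With at least 10 counts in every library there was 1 call between naïve sexes and 532 for the interaction (3 of the 12). One fit over all libraries called 906 genes between naïve sexes (3 of the 12). With the replicate number as a block, 6 genes were called between naïve sexes and 68 between CCI sexes (0 of the 12). In males it called 9 of the 12 instead of 8, gaining Gabra4 (log2FC 0.51, edgeR adjusted p = 0.0133, against 0.0412 to 0.2 under its other alternatives). The labels do not say that a number pairs rats, but the headers of the first naïve and first CCI male columns share an added letter of unstated meaning. The correlation of same-numbered deviations was 0.731 between naïve and CCI males and from -0.02 to 0.142 between other groups. The block changed no other call count by over 1.5 times.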
